A study of Mus musculus with 8 samples.

Results

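The variable part of the antibody heavy chain is encoded by Ighv segments, and 113 of them were read in RNA from germinal centre B cells of mice with 2 or 1 intact copies of Smarca4. Of the 55421 gene rows in the count table, 185 carry a symbol that begins with Ighv. The 113 members are those whose counts summed to 10 or more over the 8 libraries. Of the other 72 rows, 59 had no count. The last row left out was Ighv5-21, with 6 counts in all, and the first row kept was Ighv1-17, with 10. Of the members, 100 are annotated as V genes and 13 as V pseudogenes. All 113 lie on the minus strand of chromosome 12 (build mm10), from position 113572927 to 116000461.

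A B cell builds its heavy chain gene by joining 1 Ighv segment to a D and a J segment, and it then transcribes almost only the joined segment. The share of reads on each segment therefore describes which V genes the cells carry, weighted by how much heavy chain RNA each cell makes. In the germinal centre, B cells divide and mutate their V segments in the dark zone as centroblasts. They are selected for antigen binding in the light zone as centrocytes, and a few V segments can come to prevail as clones expand.

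The libraries came from spleens of C57BL/6 mice aged 8 to 10 weeks, collected on day 10 after immunization, and the cells were isolated with a kit based on PNA, a lectin that binds germinal centre B cells. The fractions that the labels call CB and CC (taken here to mean centroblasts and centrocytes) came from Smarca4+/+ and Smarca4+/- animals. Each of the 4 groups (Smarca4+/+ CB, Smarca4+/- CB, Smarca4+/+ CC and Smarca4+/- CC) held 2 libraries. The labels name no immunogen, no Cre and no way of separating the fractions, and they do not say whether replicates were separate mice. A p-value therefore measures only the spread between these samples, and that spread may be technical. Smarca4, the ATPase of SWI/SNF chromatin remodelling complexes that the genotype reduces, stood at 897 and 1002 CPM in Smarca4+/+ CB and at 734 and 702 in Smarca4+/- CB. In CC it stood at 322 and 316 CPM in Smarca4+/+ and at 244 and 311 in Smarca4+/-. Where values are given in pairs, replicate 1 precedes replicate 2.

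Depth differed strongly between the fractions. Totals were 18357578 to 24341805 counts per library in CB, but 526353 to 837558 in CC. Ighv segments took 14340 and 13659 of these in Smarca4+/+ CB and 15570 and 13890 in Smarca4+/- CB. In Smarca4+/+ CC they took 419 and 536, and in Smarca4+/- CC 256 and 405, so that the CB libraries held 35.6 times as many on average. Most counts were even numbers: 67.0% to 78.4% of the members' nonzero counts in CB and 89.7% to 94.9% in CC. Sampling intervals below therefore take 2 counts as 1 observation, and a count of 0 is read as up to 6 counts (3 observations). Such intervals and floors cover counting error only.

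The fractions also differed in markers of other cells. The summed level of 9 macrophage markers was 49.9 to 261 CPM in CB and 1653 to 3782 CPM in CC, and 9 of 9 rose in CC of each genotype. The summed level of 8 T cell markers was 1.52 to 3.55 CPM in CB, 341 and 304 CPM in Smarca4+/+ CC, and 126 and 34.4 CPM in Smarca4+/- CC. For 8 markers of naive follicular B cells, which carry Ighv RNA of their own, the sums were 306 to 431 CPM in CB, 1449 and 1501 CPM in Smarca4+/+ CC, and 1242 and 830 CPM in Smarca4+/- CC. Of these, 7 rose in CC of Smarca4+/+ and 5 in CC of Smarca4+/-. Memory B cell markers (8) summed to 105 to 118 CPM in CB, 239 and 276 CPM in Smarca4+/+ CC, and 182 and 113 CPM in Smarca4+/- CC. Erythroid markers (7) summed to 5.04 to 10.4 CPM in CB, 583 and 713 CPM in Smarca4+/+ CC, and 419 and 104 CPM in Smarca4+/- CC. Plasma cell markers (10) summed to 509 to 630 CPM in CB and 504 to 649 CPM in CC. Of the 9 of them tested, 2 rose and 0 fell in Smarca4+/+ CC, and 1 rose and 1 fell (Jchain, which joins IgM and IgA into polymers) in Smarca4+/- CC. Slpi, a secreted protease inhibitor, rose in both, from 4.53 to 6.39 CPM in CB to 21.3 to 58.8 CPM in CC. Irf4, the other that rose in Smarca4+/+ CC, had 34.4 to 59.4 CPM in CB and 99.6 to 199 CPM in CC. Prdm1 was not called, but had 2.31 to 5.48 CPM in CB and 17.8 to 32.0 CPM in CC. Xbp1 overlapped between the fractions. The plasma cell receptor Tnfrsf17 was at 0 to 0.316 CPM in all 8 libraries, and its 0 in CC says little at that depth. The 11 germinal centre B cell markers summed to 4035 to 4564 CPM in CB and 3019 to 3827 CPM in CC. Dark zone markers (6, Polh among them) summed to 4980 to 5939 CPM in CB and 1437 to 3092 CPM in CC. Of these, 6 fell in CC of Smarca4+/+ and 5 in CC of Smarca4+/-. Light zone markers (7) summed to 279 to 344 CPM in CB and 772 to 1058 CPM in CC, where 4 rose in Smarca4+/+ and 5 in Smarca4+/-. What part the other cells have in the usage values was not tested.

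Before the results it has to be said that the Smarca4+/+ CC libraries stood apart from the other 6. Their most used segment was Ighv1-42, whereas Ighv1-9 led all 4 CB libraries and both Smarca4+/- CC libraries. Results that rest on them are given with and without them.

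The sequences of the 5 segments on which the results turn are printed here because they show how alike the segments are that the counting had to tell apart. Each is the last 300 bases of the V exon in the coding orientation, read from GENCODE M21 transcripts on mm10, minus strand. Positions are chr12:114583569-114583868 for Ighv1-9, chr12:114937113-114937412 for Ighv1-42, chr12:115623161-115623460 for Ighv1-69, chr12:114788372-114788671 for Ighv1-26 and chr12:114140692-114140991 for Ighv9-3. Capitals mark bases that differ from Ighv1-9, compared position by position without gaps.
Ighv1-9: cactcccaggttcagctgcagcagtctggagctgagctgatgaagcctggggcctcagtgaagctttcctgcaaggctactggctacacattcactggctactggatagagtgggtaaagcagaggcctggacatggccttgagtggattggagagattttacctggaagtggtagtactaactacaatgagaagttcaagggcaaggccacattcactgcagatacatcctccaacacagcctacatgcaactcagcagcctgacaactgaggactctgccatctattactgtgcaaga
Ighv1-42: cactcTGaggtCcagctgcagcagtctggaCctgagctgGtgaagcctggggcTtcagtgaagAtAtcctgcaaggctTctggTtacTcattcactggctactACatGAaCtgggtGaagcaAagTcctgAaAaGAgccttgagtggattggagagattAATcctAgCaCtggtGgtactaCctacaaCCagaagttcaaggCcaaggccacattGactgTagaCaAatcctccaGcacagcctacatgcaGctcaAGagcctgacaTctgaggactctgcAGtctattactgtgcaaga
Ighv1-69: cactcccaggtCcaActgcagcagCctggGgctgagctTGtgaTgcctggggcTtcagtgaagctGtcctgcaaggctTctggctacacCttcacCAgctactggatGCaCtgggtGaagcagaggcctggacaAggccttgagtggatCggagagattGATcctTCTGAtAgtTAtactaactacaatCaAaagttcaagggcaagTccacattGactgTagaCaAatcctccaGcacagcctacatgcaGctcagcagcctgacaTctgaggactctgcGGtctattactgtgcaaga
Ighv1-26: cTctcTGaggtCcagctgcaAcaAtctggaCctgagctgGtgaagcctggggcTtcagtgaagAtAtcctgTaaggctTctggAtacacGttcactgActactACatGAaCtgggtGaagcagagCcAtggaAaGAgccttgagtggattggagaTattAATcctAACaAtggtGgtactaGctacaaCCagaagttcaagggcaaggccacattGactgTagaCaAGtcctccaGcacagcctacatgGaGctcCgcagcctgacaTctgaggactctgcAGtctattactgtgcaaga
Ighv9-3: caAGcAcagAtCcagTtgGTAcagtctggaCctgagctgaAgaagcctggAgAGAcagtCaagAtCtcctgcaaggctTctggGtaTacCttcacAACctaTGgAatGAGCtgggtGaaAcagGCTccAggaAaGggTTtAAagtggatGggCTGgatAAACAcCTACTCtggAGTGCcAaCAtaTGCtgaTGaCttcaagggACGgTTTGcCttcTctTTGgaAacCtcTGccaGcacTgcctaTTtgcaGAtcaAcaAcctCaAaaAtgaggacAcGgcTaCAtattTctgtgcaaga
Ighv1-42 was 85.0% identical to Ighv1-9, Ighv1-69 86.0% and Ighv1-26 83.0%, as members of family 1. Ighv9-3, of family 9, was 64.7% identical to Ighv1-9. Ighv1-42 and Ighv1-26 were the closest of the printed segments, at 92.7%.

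How far a read can be placed on 1 segment was described by the runs of 50 bases of each member's transcript that also occur in another gene's transcript. This share was 0.662% for Ighv1-9, 32.8% for Ighv1-42, 42.1% for Ighv1-69, 49.0% for Ighv1-26 and 23.2% for Ighv9-3. The nearest relative of Ighv1-42 was Ighv1-43 at 97.0% identity, and that of Ighv1-69 was Ighv1-59 at 97.3%. Over all members the median share was 21.0%. It was above 50% in 14 members, and 14 had no run in common with another gene. Ighv1-72, the segment known as V186.2 that leads the C57BL/6 response to the hapten NP, shared 92.5% of its runs with other genes. How reads that fit several segments were counted is not given in the sources used here, so values of such segments are uncertain.

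Usage in centroblasts was broad and much alike in all 4 libraries. The usage share is a segment's count per kb of gene model as a percentage of the sum over the 113 members. Ighv1-9 was the most used segment, with 10.9% and 12.1% in Smarca4+/+ CB and 10.7% and 11.6% in Smarca4+/- CB. Ighv1-81 followed with 7.54%, 6.87%, 7.92% and 7.98%, in the same order of libraries. Ighv9-3 had 7.03%, 4.90%, 5.21% and 5.57%. Ighv1-26 spread more widely, with 8.46% and 3.36% in Smarca4+/+ CB and 5.18% and 3.43% in Smarca4+/- CB, so its groups overlapped. In all, 17 members reached 1% in each CB library, and together they made up 54.1% to 62.4% of usage. No member was at 0 in all 4 CB libraries, and 102, 106, 110 and 108 of 113 were detected. Even so, replicates differed beyond sampling noise: the chi-square over members, on counts divided by 2, was 9.58 per degree of freedom in Smarca4+/+ CB and 7.24 in Smarca4+/- CB. The median member varied by 42.9% (SD over mean) across the 4 CB libraries. Ighv1-34, for example, had 122 counts in Smarca4+/- CB replicate 1 and 24, 12 and 12 in the other CB libraries. Across members, the mean CB share was almost unrelated to the order along the locus (Spearman rho = -0.0015, n = 113) and to the share of runs in common with other genes (rho = 0.083); members share libraries and sequence, so these values are descriptions.

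Usage in the Smarca4+/+ CC libraries was concentrated on fewer segments, and Ighv1-42 took the largest share of it. Ighv1-42 took 26.9% and 29.7% of usage in Smarca4+/+ CC (28.3% ± 1.94, SD, n = 2), against 3.20% and 3.48% in Smarca4+/+ CB. In Smarca4+/- it took 3.67% and 2.16% in CB and 2.42% and 1.53% in CC. Its counts were 110 and 156 in Smarca4+/+ CC and 6 and 6 in Smarca4+/- CC. Both Smarca4+/+ CC libraries thus lay far above the other 6, and in Smarca4+/- CC replicate 1 lay within the CB range and replicate 2 below it. As a share of raw counts, the 95% Wilson intervals were 20.8% to 32.7% and 24.0% to 34.8% in Smarca4+/+ CC, and 0.800% to 6.66% and 0.506% to 4.28% in Smarca4+/- CC.

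Ighv1-69, another family 1 segment, was rare in CB at 0.33%, 0.19%, 0.49% and 0.47%. It reached 6.37% and 7.99% in Smarca4+/+ CC, and 3.23% and 0% in Smarca4+/- CC. The 0 stands for 0 of 405 counts, which allows a share of up to 1.48%. Smarca4+/+ CC again held the highest values, while Smarca4+/- CC was split.

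Ighv1-26 had 11.7% and 8.37% in Smarca4+/+ CC and 2.42% and 6.13% in Smarca4+/- CC. The first of these lay above every CB library, and the second within their range. Together Ighv1-42, Ighv1-69 and Ighv1-26 made up 45.0% and 46.0% of usage in Smarca4+/+ CC, 6.06% to 11.99% in CB, and 8.07% and 7.66% in Smarca4+/- CC.

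The segments that led the centroblast libraries took less of usage in Smarca4+/+ CC. Ighv1-9 had 5.39% and 1.90% there, against 12.9% and 9.19% in Smarca4+/- CC. Ighv9-3 had 0.49% and 0.38% there, from 2 counts in each library, against 9.69% and 4.09% in Smarca4+/- CC. Ighv1-81 had 6.37% and 2.66% in Smarca4+/+ CC and 0.81% and 9.19% in Smarca4+/- CC. The Smarca4+/+ CC libraries lay below all CB libraries for these 3 segments, whereas the Smarca4+/- CC libraries lay on both sides of the CB range for Ighv1-9, Ighv9-3 and Ighv1-81.

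**Figure D1:**
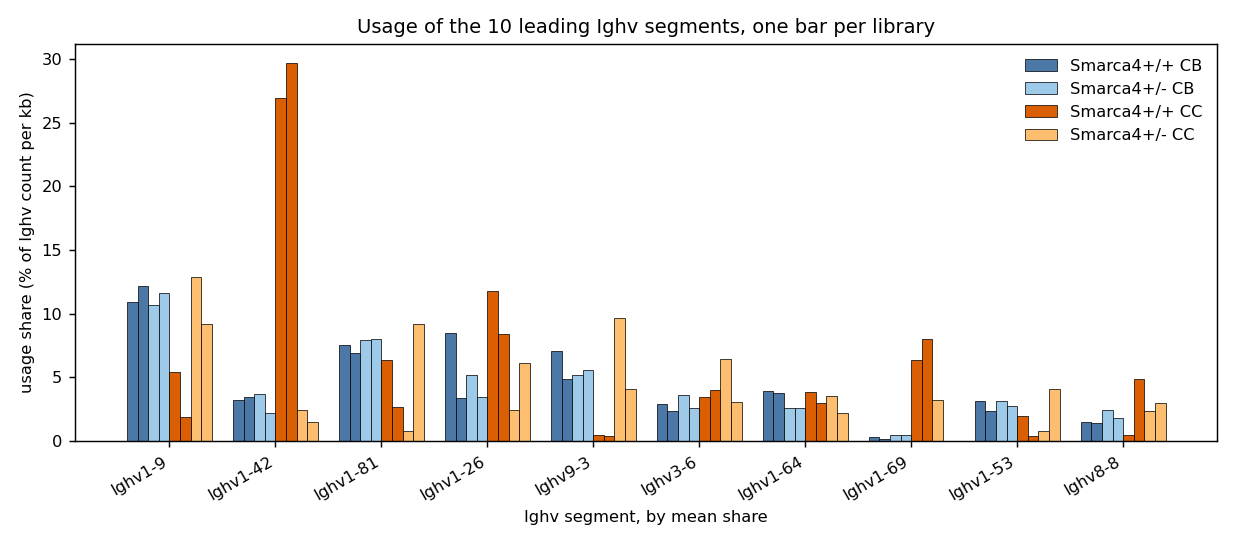
Usage share (percent of the Ighv count per kb) of the 10 segments with the highest mean share, with 1 bar for each library, replicate 1 before replicate 2, coloured by group. Ighv1-42 stands at 26.9% and 29.7% in Smarca4+/+ CC and at 3.67% or less in the other 6 libraries.

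Of the other leading segments, Ighv3-6, Ighv1-64 and Ighv8-8 overlapped between the CB libraries and CC of each genotype, whereas Ighv1-53 lay below all 4 CB libraries in Smarca4+/+ CC. Ighv3-6 ranged from 2.34% to 3.65% in CB, with 3.44% and 4.01% in Smarca4+/+ CC and 6.48% and 3.07% in Smarca4+/- CC. Ighv1-64 ranged from 2.56% to 3.92% in CB, with 3.82% and 2.97% in Smarca4+/+ CC and 3.50% and 2.21% in Smarca4+/- CC. Ighv1-53 had 3.15%, 2.37%, 3.14% and 2.73% in CB, 1.96% and 0.38% in Smarca4+/+ CC, and 0.81% and 4.09% in Smarca4+/- CC. Ighv8-8 had 1.41% to 2.44% in CB, 0.48% and 4.85% in Smarca4+/+ CC, and 2.37% and 3.005% in Smarca4+/- CC. Ighv1-72 did not lead any library: it had 1.11%, 1.39%, 2.02% and 1.48% in CB, 3.04% and 0.67% in Smarca4+/+ CC, and 1.43% and 0.45% in Smarca4+/- CC, the last 4 values from 14, 4, 4 and 2 counts.

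At the depth of the CC libraries many segments were not seen. Of 113 members, 35 and 39 were detected in Smarca4+/+ CC and 39 and 53 in Smarca4+/- CC, and 42 were at 0 in all 4 CC libraries. These 42 made up 7.15% to 9.61% of usage in the CB libraries, and the most used of them was Ighv1-66 at a mean of 1.05%. With every library thinned to 256 Ighv counts, 62.0 to 67.2 members were detected on average in CB, 33.1 and 36.3 in Smarca4+/+ CC, and 39 and 49.7 in Smarca4+/- CC. This thinning, also used below, drew single counts. If 2 counts are 1 observation, it split most pairs in CB but kept Smarca4+/- CC replicate 1 at 128 observations. Depth was then not fully equalized, and CB kept more observations than CC. 19 members were detected in all 8 libraries.

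The spread of usage over segments was measured as the effective number of segments, the number of equally used segments that would give the same Shannon entropy. At 256 Ighv counts per library (mean of 50 draws) it was 36.6 and 41.3 in Smarca4+/+ CB and 41.2 and 42.6 in Smarca4+/- CB. It was 16.9 and 17.2 in Smarca4+/+ CC and 26.9 and 33.3 in Smarca4+/- CC. All 4 CC libraries lay below all 4 CB libraries, and the Smarca4+/+ CC libraries were lowest. As said above, this thinning may not fully equalize depth between the fractions. Pielou evenness, which sets the entropy against the number of segments detected, placed the Smarca4+/- CC libraries differently. At the same thinning it was 0.872 to 0.893 in CB, 0.807 and 0.793 in Smarca4+/+ CC, and 0.898 and 0.898 in Smarca4+/- CC, so that Smarca4+/- CC lay above every CB library. By this measure CC minus CB was -0.0361 (exact permutation p = 0.429). Without thinning, the values were 43.7, 50.1, 50.6 and 51.8 in CB, 17.1 and 18.0 in Smarca4+/+ CC, and 26.9 and 34.97 in Smarca4+/- CC.

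The difference of CC minus CB was -16.8 segments (4 against 4 libraries, 2-sided exact permutation p = 0.0286, the smallest that 70 arrangements allow). Adjusted over the 10 usage tests this p was 0.286, which did not pass 0.05. Without both Smarca4+/+ CC libraries the difference was -10.3 segments (2 against 4, exact permutation p = 0.133, the smallest this design allows). Dividing the counts by 2 before thinning gave -11.8. Between genotypes the difference (Smarca4+/- minus Smarca4+/+) was 7.99 segments (exact permutation p = 0.314). Without both Smarca4+/+ CC libraries it was -2.95, but Smarca4+/+ then held CB only and Smarca4+/- both fractions. That value therefore mixes genotype with fraction. Within CB the means were 38.9 in Smarca4+/+ and 41.9 in Smarca4+/-.

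Removal of Ighv1-42 alone raised the effective number in Smarca4+/+ CC to 21.8 and 24.9. Under the same removal it was 25.9 and 32.7 in Smarca4+/- CC and 35.1 to 42.7 in CB, so that the Smarca4+/+ CC libraries kept the lowest values. On the inverse Simpson index, which weights the leading segments more, Smarca4+/+ CC had 9.39 and 8.62, against 19.5 and 24.5 in Smarca4+/- CC and 23.3 to 27.0 in CB.

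The 10 most used segments of each library, at the same thinning, held 53.9% and 47.6% of usage in Smarca4+/+ CB and 49.8% and 47.2% in Smarca4+/- CB. They held 73.1% and 71.2% in Smarca4+/+ CC and 59.2% and 53.1% in Smarca4+/- CC. The difference of CC minus CB was 14.5 percentage points (exact permutation p = 0.0571), and without both Smarca4+/+ CC libraries it was 6.55 (exact permutation p = 0.267). With all counts, 4 segments were enough for 50% of usage in each Smarca4+/+ CC library, against 8 and 10 in Smarca4+/- CC and 9 to 14 in CB.

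**Figure D2:**
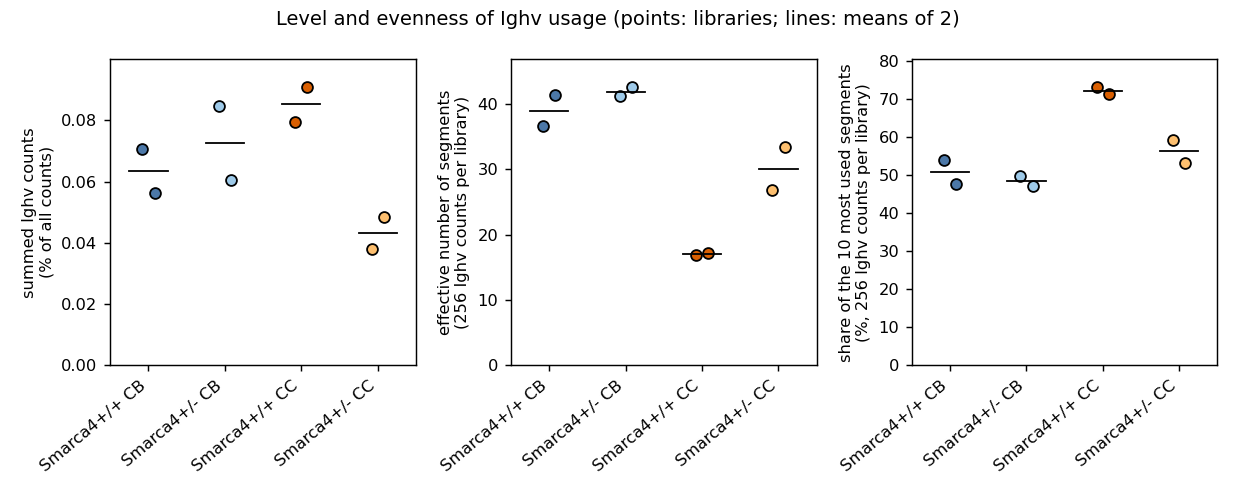
Summed Ighv counts as a percentage of all counts, effective number of segments, and share of the 10 most used segments, by group; points are libraries and lines are means of 2. The effective number is 16.9 and 17.2 in Smarca4+/+ CC, below the other 6 libraries.

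**Figure D3:**
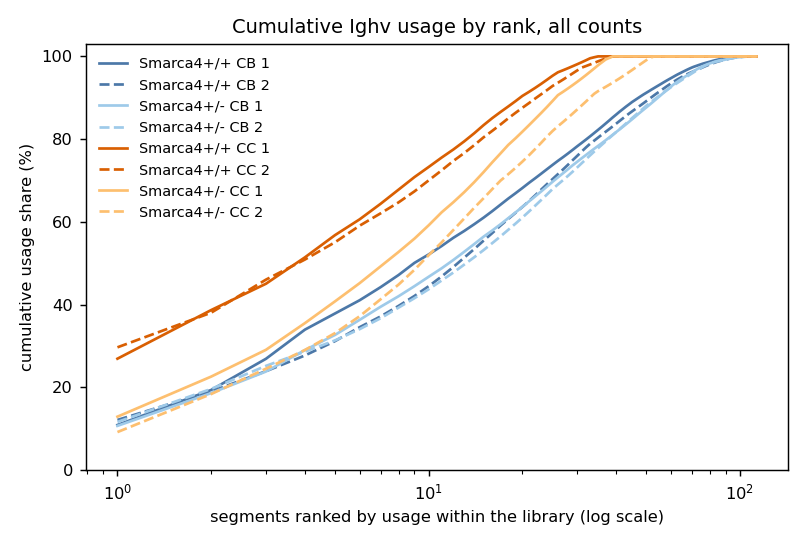
Cumulative usage share (percent) against the rank of the segment within each library (log scale), with all counts and 1 line per library. The Smarca4+/+ CC lines start at 26.9% and 29.7% and reach 50% at 4 segments, whereas the CB lines need 9 to 14.

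The total of heavy chain V RNA in CC lay on opposite sides of that in CB in the 2 genotypes. Summed over members it was 0.0706% and 0.0561% of all counts in Smarca4+/+ CB and 0.0796% and 0.0909% in Smarca4+/+ CC. In Smarca4+/- it was 0.0848% and 0.0606% in CB and 0.0378% and 0.0484% in CC. In Smarca4+/+ both CC libraries lay above both CB libraries, and in Smarca4+/- both lay below. Over all 8 libraries neither fraction (CC minus CB -0.0038 percentage points, exact permutation p = 0.8) nor genotype (Smarca4+/- minus Smarca4+/+ -0.0164, exact permutation p = 0.229) passed the test. The test shuffled all 8 libraries without regard to the other factor, so opposite differences in the 2 genotypes enter its spread. These p-values do not show that the groups were alike. Without both Smarca4+/+ CC libraries the difference of CC minus CB was -0.0249 (2 against 4, exact permutation p = 0.133, the smallest this design allows). In such mixed samples fewer cells that carry a segment and less RNA per cell cannot be told apart.

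By family, the 58 members of family 1 took 59.6% to 64.6% of usage in CB, 79.8% and 75.7% in Smarca4+/+ CC, and 55.6% and 64.9% in Smarca4+/- CC. Smarca4+/+ CC lay above all other libraries, but the difference between fractions did not pass the test over 4 against 4 libraries (6.77 percentage points, exact permutation p = 0.314), and without both Smarca4+/+ CC libraries the difference was -1.99. As shares of a total that still held Ighv1-42, the other 57 took 52.9% and 46.0% of usage in Smarca4+/+ CC. These 2 values cannot be set beside the CB range above, since Ighv1-42 takes up much of that total in Smarca4+/+ CC. Family 2 had 5.05% to 8.06% in CB, 0.74% and 2.29% in Smarca4+/+ CC, and 10.1% and 8.13% in Smarca4+/- CC. Family 9, with Ighv9-3 as its main segment, had 6.17% to 7.86% in CB, 3.92% and 2.47% in Smarca4+/+ CC, and 9.69% and 4.09% in Smarca4+/- CC. Family 5 had 6.60% to 7.48% in CB and 2.45% to 5.68% in CC, below CB in each CC library (-2.996 percentage points, exact permutation p = 0.0286, adjusted over 15 families 0.214). Family 11, with 2 members, had 0.089% to 0.24% in CB and no count in CC, with the same p-values and a share too small to be seen at the depth of CC.

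By position, the 56 members nearest to the D segments took 46.4% to 53.1% of usage in CB. They took 26.4% and 26.8% in Smarca4+/+ CC and 58.0% and 44.1% in Smarca4+/- CC. The Smarca4+/+ CC libraries lay below the other 6. The difference of CC minus CB was -10.7 percentage points (exact permutation p = 0.286), and without both Smarca4+/+ CC libraries it was 1.499. Ighv1-42, Ighv1-69 and Ighv1-26 all belong to the 57 members farther from the D segments, as numbers 74, 97 and 66 of 113 in order.

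**Figure D4:**
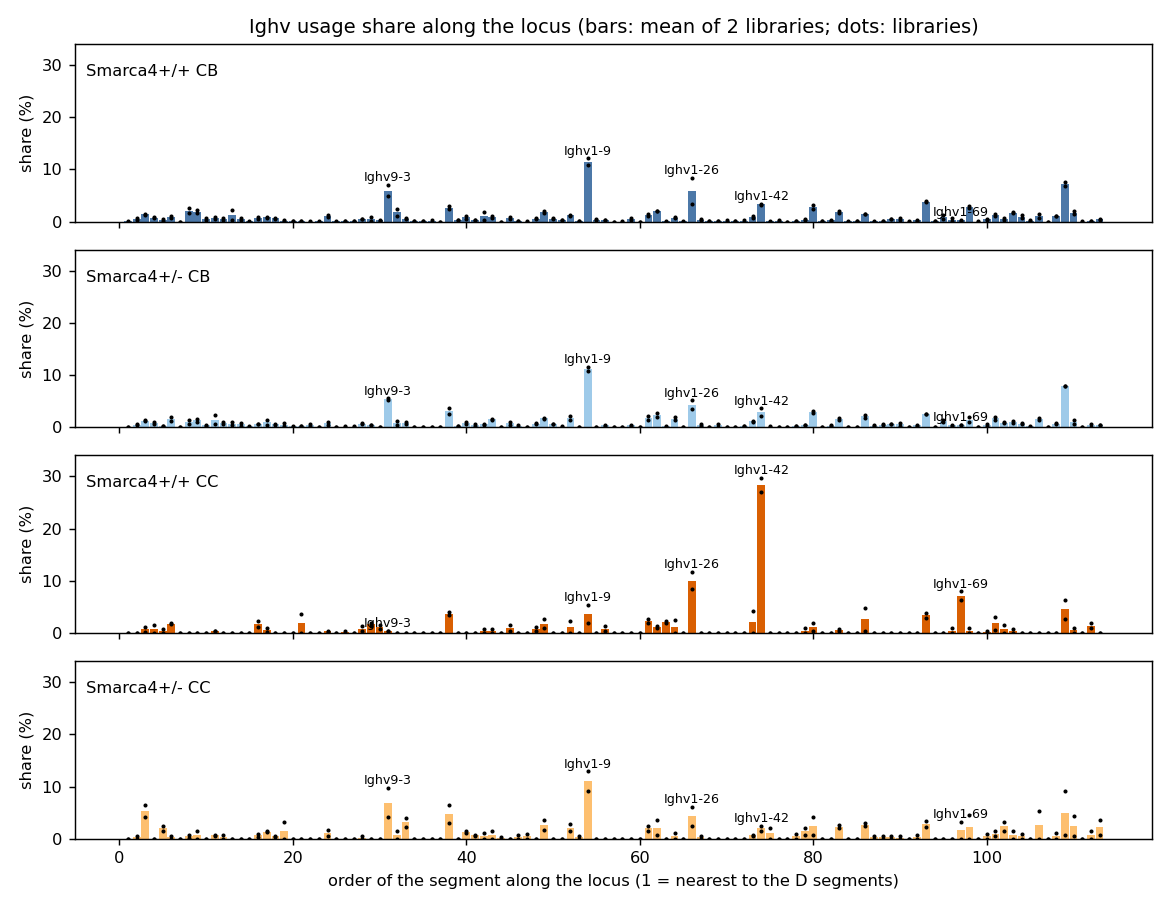
Usage share (percent) of the 113 members in their order along the locus, from the D segments outward, with 1 panel per group; bars are means of 2 libraries and dots are libraries. Smarca4+/+ CC shows 1 high bar, Ighv1-42, at number 74, where the other groups have shares of 3.67% or less.

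Similarity of usage was described by the Morisita-Horn index, which is 1 for equal shares and 0 for shares with no segment in common. The 6 pairs of CB libraries had 0.933 to 0.967, across genotypes as within them. The Smarca4+/+ CC libraries had 0.936 with each other, but 0.283 to 0.484 with the CB libraries and 0.286 to 0.387 with Smarca4+/- CC. The Smarca4+/- CC libraries had 0.739 to 0.892 with the CB libraries and 0.664 with each other. With all counts, each Smarca4+/- CC library was thus more like the CB libraries than like the other library of its group. By Bray-Curtis similarity, the summed overlap of shares, the Smarca4+/+ CC pair had 69.4% with all counts, below every CB pair (80.7% to 83.5%). Thinned to 256 counts, the Smarca4+/+ CC libraries had a Morisita-Horn index of 0.934 with each other and 0.252 to 0.449 with CB. The CB libraries then had 0.814 to 0.889 among themselves, so that by this index the Smarca4+/+ CC pair lay above every CB pair. At this thinning the Smarca4+/- CC libraries had 0.673 with each other. Replicate 2 had 0.826 to 0.8997 with the CB libraries, but replicate 1 had 0.652 to 0.695, on both sides of its value with replicate 2. Counts of the 2 Smarca4+/+ CC libraries differed beyond sampling noise (chi-square 2.77 per degree of freedom on counts divided by 2, p = 7.49e-06), and they were counted as 2 samples.

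**Figure D5:**
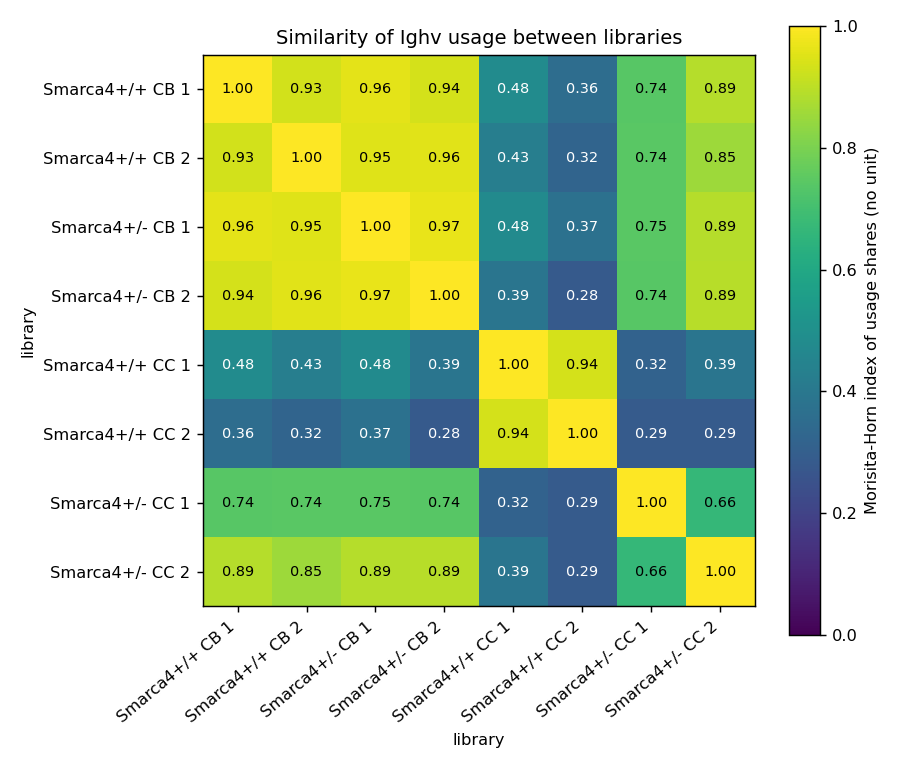
Morisita-Horn index of usage shares for the 28 pairs of libraries, with libraries on both axes and the index printed in each cell. The 4 CB libraries form a block of 0.93 to 0.97, and the Smarca4+/+ CC libraries reach 0.94 with each other and at most 0.48 with CB.

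The levels of single segments were tested within a fit over all genes (edgeR's quasi-likelihood test, Benjamini-Hochberg adjustment over 12997 genes, called at 0.05), in which 84 members passed the filter on low counts. These 84 passed largely through the deep CB libraries, so no count over them supports a statement about all members. No member passed the test between genotypes in CB: 0 of 84 were called, against 0% of all genes tested, and 1 had an unadjusted p under 0.05, against 0.646% of all genes. Smarca4 itself was not called either, at 897 and 1002 CPM in Smarca4+/+ CB and 734 and 702 in Smarca4+/- CB. The absence of calls therefore does not show equal levels. Among the members Ighv3-1 came nearest, with 2 and 6 counts in Smarca4+/+ CB and 101 and 39 in Smarca4+/- CB (log2 fold change 4.14, SE 1.30, edgeR adjusted p = 1). DESeq2 also called 0 members, against 0.0231% of all genes.

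In CC, 1 of 84 members was called between genotypes, against 0.0231% of all genes tested (3 of 12997). Ighv1-42 stood at 197 and 255 CPM in Smarca4+/+ CC and at 8.01 and 7.11 CPM in Smarca4+/- CC, a log2 difference of -4.90 (SE 0.49, adjusted p = 0.00883). The other called genes were constant regions of the heavy chain: Igha, of the IgA class (683 and 705 against 18.7 and 35.6 CPM, adjusted p = 0.0175), and Ighg2b, of the IgG2b class (406 and 517 against 101 and 116 CPM, adjusted p = 0.00883). The Ighv1-42 call was lost under limma-voom (adjusted p = 0.369) and without Smarca4+/+ CC replicate 2 (0.0579), Smarca4+/- CC replicate 1 (0.0825) or Smarca4+/- CC replicate 2 (0.123). Its log2 difference stayed between -5.09 and -3.90 under all 18 alternatives. An unadjusted p under 0.05 was found for 20 of 84 members (23.8%), 5 higher and 15 lower in Smarca4+/-, against 15.2% of all genes.

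Members with the next smallest p in that contrast did not pass it. Ighv9-3 had 3.57 and 3.27 CPM in Smarca4+/+ CC and 32.0 and 19.0 in Smarca4+/- CC (adjusted p = 0.140). Ighv14-4 had 0 counts in both Smarca4+/+ CC libraries and 10 and 9 in Smarca4+/- CC (adjusted p = 0.162). Ighv1-69 had 46.5 and 68.7 CPM in Smarca4+/+ CC and 10.7 and 0 in Smarca4+/- CC (adjusted p = 0.168). Scaling by the summed Ighv count, so that a fold is a change of usage within the segments, moved the median of all genes from 0.03 to 1.04 on the log2 scale. It called 8 members (9.52%), of which 7 were higher in Smarca4+/-, but also 20.5% of all genes, 2644 of 2661 of them higher. The members' share was thus below that of all genes, and their direction was that of nearly all genes called. DESeq2 called 7 members (8.33%), of which 5 were lower, against 6.51% of all genes, a share close to that background.

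Between fractions in Smarca4+/+, 5 of 84 members were called, against 7.49% of all genes tested (973 of 12997), a share close to that background. Ighv1-42 rose to 197 and 255 CPM in CC, where CB had 22.4 and 21.2 (log2 fold change 3.37, SE 0.38, adjusted p = 0.00107), and all 19 alternatives kept this call. Ighv1-69 rose from 2.34 and 1.17 CPM to 46.5 and 68.7 CPM (5.03, SE 0.92, adjusted p = 0.00927). This call was lost without Smarca4+/+ CB replicate 1 (adjusted p = 0.0925) or replicate 2 (0.143).

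The 3 members that fell in Smarca4+/+ CC rested on few CC counts. Ighv9-3 had 49.2 and 29.9 CPM in CB and 3.57 and 3.27 in CC, the latter from 4 counts in all (adjusted p = 0.00939). The CB level was 11.5 times the CC level, with a 95% interval from counting of 3.16 to 94.7. The call was lost without Smarca4+/+ CB replicate 1 (adjusted p = 0.0798). Ighv5-9 had 269 and 402 counts in CB and 0 in both CC libraries, at least 3.19-fold lower against a floor of 6 counts over the group (adjusted p = 0.0332). Ighv1-9 fell from 76.2 and 73.9 CPM to 39.3 and 16.3 CPM (log2 fold change -1.45, SE 0.38, adjusted p = 0.0421). Of 19 alternatives, 9 lost the call of Ighv5-9 and 11 that of Ighv1-9, among them leaving out either Smarca4+/+ CB library (adjusted p = 0.140 and 0.205 for Ighv5-9, 0.229 and 0.235 for Ighv1-9) or Smarca4+/+ CC replicate 2 (0.0794 and 0.120). The fitted median over the 84 members was -1.63 on the log2 scale, but 39 of them were at 0 in both CC libraries. With every member below 6 counts in CC, those at 0 included, set to the floor, the median was 0.84. Its sign thus depends on segments that were unseen or barely seen. Over all genes the fitted median was -0.19.

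Between fractions in Smarca4+/-, 0 of 84 members were called, against 3.67% of all genes tested (477 of 12997), and 14 (16.7%) had an unadjusted p under 0.05, all lower in CC, against 18.2% of all genes. DESeq2 called 4 members (4.76%) against 11.4% of all genes, and limma-voom 1 (1.19%) against 3.01%. Ighv1-42 had 29.0 and 13.8 CPM in CB and 8.01 and 7.11 in CC (log2 fold change -1.50, SE 0.51, adjusted p = 0.148). Its sign was opposite to that in Smarca4+/+, but it was not called and rested on 6 counts in each CC library. Over 19 alternatives the fold ranged from -1.90 to -0.60. Ighv1-66 had the smallest p, with 169 and 201 counts in CB and 0 in both CC libraries (adjusted p = 0.0846). Without Smarca4+/+ CC replicate 1 or replicate 2, which enter this contrast only through the shared spread and the filter, 3 of 104 members were called, against 6.13% and 6.11% of all genes. The fitted median was -1.39, and -0.16 with every member below 6 counts in CC, 26 of them at 0, set to the floor.

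The test of whether the fractions differed between genotypes (the interaction) called 0 of 84 members, against 0% of all genes tested. An unadjusted p under 0.05 was found for 16 members (19.0%), against 9.19% of all genes, and DESeq2 called 3 (3.57%), against 2.61%. Ighv1-42 came nearest, with a difference of -4.88 on the log2 scale (SE 0.61, edgeR adjusted p = 0.0733). Over 18 alternatives this adjusted p ranged from 1.08e-11 to 0.623 and passed 0.05 in 6. Ighv9-3 (2.93, SE 0.82, adjusted p = 0.419) and Ighv1-69 (-4.44, SE 1.28, adjusted p = 0.419) followed and did not pass.

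Genes that act on or beside the V segments were counted by list. Of the 10 genes of V(D)J recombination, 7 were tested and 0 were called in any of the 5 contrasts, and Rag2 and Dntt, which act in cutting the DNA and in extending the ends, were at 0 in all 8 libraries. Of 16 tested genes of somatic hypermutation, 3 fell and 0 rose in Smarca4+/+ CC and 2 fell and 0 rose in Smarca4+/- CC, so that 13 and 14 did not pass. Polh, the polymerase that writes many of the mutations, fell in both genotypes (log2 fold change -2.07 and -2.24, adjusted p = 0.0095 and 0.0089). Of 15 factors that act on V promoters or on the locus, 7 fell and 1 rose in Smarca4+/+ CC, and 2 fell in Smarca4+/- CC. Of all genes tested, 7.49% were called between fractions in Smarca4+/+ and 3.67% in Smarca4+/-. Pou2af1, the cofactor of the octamer binding proteins at V promoters, fell in both (-1.02 and -1.36, adjusted p = 0.0157 and 0.0069), and Irf4 rose in Smarca4+/+ CC (1.77, adjusted p = 0.0109). None of these 2 lists had a call between genotypes. The median log2 fold change in Smarca4+/+ and Smarca4+/- was -0.64 and -0.50 for the hypermutation list and -0.79 and -0.66 for the promoter factors, beside -0.19 and -0.08 over all genes.

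Among the heavy chain constant genes, Igha and Ighg2b showed the same libraries apart. Igha made up 8.82% and 8.78% of constant gene usage per length in Smarca4+/+ CC and 0.15% to 0.97% in the other 6 libraries. Ighg2b made up 5.22% and 6.41% there and 1.70% to 2.33% elsewhere. Ighm, the IgM constant gene, took 70.9% to 88.3% in all 8 libraries. Its share was 70.9% and 71.2% in Smarca4+/+ CC, but also 71.1% in Smarca4+/- CC replicate 1. Ighg1 had 9.91% and 8.60% in Smarca4+/+ CC, and 10.1% and 11.4% in Smarca4+/- CC. Ighg3 was highest in Smarca4+/- CC replicate 1, at 10.5%, against 1.32% to 4.53% elsewhere. Igha (log2 fold change 3.74, adjusted p = 0.00201), Ighg2b (1.66, adjusted p = 0.00173) and Ighd (1.48, adjusted p = 0.0116) rose in Smarca4+/+ CC and Ighg3 fell (-1.27, adjusted p = 0.0321), while Ighm fell in Smarca4+/- CC (-0.86, adjusted p = 0.0265).

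The kappa light chain V segments served as a comparison. Over 100 Igkv segments the effective number at the same thinning was 29.8 to 34.1 in CB, 15.7 and 13.7 in Smarca4+/+ CC, and 22.5 and 36.4 in Smarca4+/- CC. The same Igkv segment led all 8 libraries, so that the leading segment did not change as it did for the heavy chain. Igkv6-15 took 16.4% and 17.2% in Smarca4+/+ CC and 3.84% to 9.98% elsewhere. The Morisita-Horn index between Smarca4+/+ CC and CB libraries was 0.739 to 0.876 for Igkv, against 0.283 to 0.484 for Ighv. Between Smarca4+/- CC and CB libraries the Igkv index was 0.764 to 0.8995, and among the CB libraries it was 0.944 to 0.983. The ranges of the CC groups overlapped, so by this index Smarca4+/+ CC was not set apart from Smarca4+/- CC in its likeness to CB. These light chain values were not tested between groups.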

How the data were processed

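RNA was measured in 8 libraries by sequencing of total RNA depleted of ribosomal RNA, per the labels' protocols. The authors deposited 1 table of raw read counts per gene, without normalization, and a length column, the other unit, which gives the bases of each gene model, per the file headers. FastQC, STAR, featureCounts, Subread, R 4.2.1 and the build mm10 are named by the submitters' processing notes; for strand and multiple mapping the setting is not given in the sources used here. Symbols were assigned to 55154 of 55421 identifiers, and the coordinates of all 113 members equal those of GENCODE M21.

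Counts of all genes were fitted in R 4.3.3 with edgeR 4.0.16 (filterByExpr with minimum count 10 and minimum total 15, TMM scaling, 1 mean per group, 4 residual degrees of freedom, 2-sided quasi-likelihood tests). CPM values use the TMM scaling. A standard error (SE) is the fold change over the root of its F statistic. DESeq2 1.42.0 and limma 3.58.1 gave alternatives. Usage shares, thinning and 2-sided exact permutation tests were computed with Python 3.11.15, numpy 2.4.6 and SciPy 1.17.1, and figures with matplotlib 3.10.9. The permutation tests took no account of the other factor or of mice that libraries may share. Both steps were tested on simulated data. The members named are the 10 with the highest mean share, the 3 most used of each library, the 5 with the largest range, those called, the 6 smallest p where fewer were called, those at the threshold of 10 counts, and Ighv1-72; of these, the ones on which a result turns are given values. Ighv1-34 was named as an example after its values were seen. The members, gene lists and marker lists were chosen with earlier results of these data known. The alternatives were other tests, scalings, filters, depths, designs and measures, and leaving out each library; leaving out Ighv1-42, leaving out both Smarca4+/+ CC libraries, and dividing counts by 2 were added after the data were seen.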

Additional observations from a re-analysis of the deposited data

Results flagged for a closer look

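In Smarca4+/- CC, Ighv1-42 rested on 6 counts in each library. As a share of raw Ighv counts, Smarca4+/- CC overlapped with CB (2.34% and 1.48% against 3.54% and 2.07%). In CPM, Ighv1-42 lay higher in both Smarca4+/+ CC libraries than in both Smarca4+/+ CB libraries (197 and 255 against 22.4 and 21.2 CPM), and lower in both Smarca4+/- CC libraries than in both Smarca4+/- CB libraries (8.01 and 7.11 against 29.0 and 13.8 CPM). The difference between these fold changes was -4.88 on the log2 scale (edgeR interaction, adjusted p = 0.0733), and over 18 alternatives the adjusted p ranged from 1.08e-11 to 0.623 and passed 0.05 in 6.

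The summed Ighv level was likewise higher in both CC than both CB libraries of Smarca4+/+ and lower in both CC than both CB libraries of Smarca4+/-. The change from CB to CC was 0.0515 percentage points lower in Smarca4+/- than in Smarca4+/+, written as -0.0515, and this difference was not tested. The marker sums of naive follicular B cells, memory B cells, T cells and erythroid cells given with the report were also higher in both Smarca4+/+ CC libraries than in both Smarca4+/- CC libraries, and their part in the result was not tested.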

How the results depend on the processing

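Depth limits these values: the CC libraries held 256 to 536 Ighv counts, so that a segment at 0 could hold up to 1.12% to 2.34% of counts there, and near-identical segments may have exchanged reads. The count of called members in CB between genotypes stayed at 0 under all 18 alternatives. Counts under the alternatives are given beside the percentage, or the number, of all genes tested that the same setting called. Except where a percentage follows, the ranges over leaving out a library are given without this background. They support no reading, since 1 group then held 1 library. Between genotypes in CC, where the report gives 1, it was 7 with DESeq2 (6.51% of all genes), 7 without a filter on low counts (323 of 21554 genes), 8 when scaled by the summed Ighv count (20.5%) and 0 with limma-voom (0%), and 0 to 1 when a library was left out (0 without Smarca4+/+ CC replicate 2 or either Smarca4+/- CC library). Between fractions in Smarca4+/+ (5) it was 9 with DESeq2 (16.7%), 12 without the filter (7.66%), 2 with only the groups compared (2.44%) and 3 with CB thinned to 657641 counts (7.68%), and 1 to 7 when a library was left out, with 1 and 2 without Smarca4+/+ CB replicate 1 and 2 (2.22% and 2.26%). Between fractions in Smarca4+/- (0) it was 4 with DESeq2 (11.4%), 1 with limma-voom (3.01%), 2 without the filter (5.30%) and 0 to 3 when a library was left out. For the interaction (0) it was 3 with DESeq2 (2.61%), 2 when scaled by the summed Ighv count (3.84%), 2 without the filter (0.213%) and 0 to 1 when a library was left out. Where leaving out a library left 1 in a group, that library was assumed to vary like the others. The cause of these changes was not tested.

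Same-numbered libraries had correlations of deviations of -0.030 to 0.039 over 10862 genes in the 6 pairs of groups. Over the usage shares of the 113 members they were -0.248 to 0.286, with both signs in each case. Between CB and CC of 1 genotype, the share correlations were 0.181 in Smarca4+/+ and 0.046 in Smarca4+/-. At the depth of the CC libraries such values cannot show whether same-numbered libraries share a mouse. The numbers are taken as labels, since the labels do not say that they mark 1 mouse. With the replicate block, or the replicate block within genotype, the interaction called 1 member, Ighv1-42 (edgeR adjusted p = 0.0453 and 1.15e-09). All genes were called at 0.00769% and 0.1% in these settings. No other count of member calls changed.

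The summed level changed sign as a percentage of all immunoglobulin counts, where CC minus CB was 0.0927 percentage points, and when Smarca4+/- CB replicate 1 or either Smarca4+/- CC library was left out. The effective number (CC minus CB) had p = 0.0571 as an inverse Simpson index (-10.4) and p = 0.429 as Pielou evenness (-0.0361) by the exact permutation test, and the share of the 10 most used segments reached p = 0.0286 without Ighv1-9 (18.3). Without both Smarca4+/+ CC libraries, CC minus CB was -0.0249 for the summed level, -10.3 for the effective number, 6.55 for the 10 most used, -1.99 for family 1 and 1.499 for the 56 members nearest to D. Smarca4+/- minus Smarca4+/+ was then -2.95, 1.58, -0.17 and 0.447 for the last 4. Family 1 and the members nearest to D thereby changed sign between fractions, and the effective number and the 10 most used between genotypes. With these libraries out, CC held Smarca4+/- only and Smarca4+/+ held CB only, so these differences mix fraction with genotype. Leaving out single libraries gave, for CC minus CB, -20.1 to -14.6 for the effective number, 11.5 to 18.2 for the 10 most used, 3.16 to 11.2 for family 1, -17.1 to -6.59 for the members nearest to D and -0.0128 to 0.0049 for the summed level. For Smarca4+/- minus Smarca4+/+ they were 4.28 to 12.4, -13.7 to -5.23, -11.6 to -4.84, 8.11 to 17.0 and -0.0254 to -0.0097. The mean similarity to CB, 0.389 for Smarca4+/+ CC and 0.811 for Smarca4+/- CC, was 0.436 and 0.617 by Bray-Curtis and 0.238 and 0.684 as a correlation of log2 shares over 8 to 16 segments. With 1 library out, the smallest p that the exact permutation test allows is 0.0571.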
